A study of Homo sapiens with 6 samples.

Results

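The proteasome is the barrel-shaped protease that degrades proteins tagged with ubiquitin. The 20S core is built of outer alpha rings that gate the channel and inner beta rings that hold the proteolytic sites, and the 19S cap recognises, unfolds and feeds in substrates with its ATPase ring and its non-ATPase subunits. The protease is needed by every cell, but some of its genes are induced or restricted to certain tissues. The drug of this study, indisulam, acts through the proteasome: indisulam glues the splicing factor RBM39 to the DCAF15 ubiquitin ligase, and the proteasome then degrades RBM39. The comparisons below ask whether the promoters of the proteasome genes were open to the same degree in cells that had become resistant to the drug.

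The promoters were chosen by gene symbol alone. All protein-coding genes of the GENCODE annotation whose symbol begins with PSMA, PSMB, PSMC, PSMD or PSME were taken, which gave 45 of 20033 coding promoters. They are 7 constitutive alpha ring genes, 7 constitutive beta ring genes, 5 induced or tissue-restricted 20S subunits, 6 ATPases and 11 non-ATPases of the 19S cap, 3 chaperones of 19S assembly and 4 activators that can replace the cap. The prefix also takes 2 genes that encode no subunit, PSMC3IP, a protein of meiotic recombination named for binding PSMC3, and PSME3IP1, which binds PSME3.

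Open chromatin was profiled by ATAC-seq, in which the enzyme Tn5 cuts and labels DNA that is accessible. The cells were SK-N-AS, a human neuroblastoma cell line without MYCN amplification, grown as xenografts in mice and then returned to culture. Naïve cells came from tumor treated with vehicle, and the R1 and R2 cells came from tumors that were growing again for the second time and were taken during the third cycle of indisulam. There were 6 libraries, a pair for each of the 3 groups, each made from 100000 cultured cells that received no treatment in the dish. The labels do not say whether the 2 libraries of a group were separate cultures or repeat preparations, so the spread between them may be technical. Several tumors of each kind were excised for culture, and neither the labels nor the methods say which of them gave the naïve, R1 and R2 cells or whether any were pooled.

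For each promoter the highest-ranked peak within 1000 bp of the start of the canonical transcript was used, called its best peak. Its −log10 p was ranked in each library over all 20033 coding promoters and written as a percentile, where 50 is the middle of all coding promoters and promoters with no peak share the lowest ranks. A percentile is thus a rank of accessibility among promoters of the same library and not an amount of open chromatin. Ranks were used because depth differed strongly. The background rate recovered from the lists was 1.35 to 2.29 tags per window for the naïve pair, 5.43 to 7.94 for the R1 pair and 0.8503 to 0.8988 for the R2 pair, and the lists held 67558 to 340558 peaks. The share of all coding promoters with a peak moved with this depth, from 61.1% in an R2 library to 84.7% in an R1 library. The background rates of the 3 groups do not overlap, so depth and group cannot be told apart. Ranks need not remove every effect of depth. Of the markers of neuroblastoma cells, all 8 adrenergic and all 8 mesenchymal genes had a promoter peak in at least 1 library. Those with a peak in all 6 libraries were 6 and 6. Of all 20033 coding promoters, 17131 had a peak in at least 1 library and 54.7% in all 6. In the limma test described later, 2 of the 6 mesenchymal genes tested, FOSL1 and VIM, were called lower in R1 than in naïve cells. FN1 lay the other way, 24.4 points higher in R1 (limma's adjusted p = 0.0558). In that comparison 0 of the 6 adrenergic genes tested were called, against 7.71% of all promoters tested. The part of these markers in the results was not tested. Of 4 blood cell markers, PTPRC and CD3E had no peak in any library.

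The promoter stretches of 6 genes on which the results turn are shown first, taken from RefSeq (GRCh38.p14) and read 5′ to 3′ on the gene's strand. PSMD9 had the highest rank of the 45, PSMB4 and PSME1 were among the genes with the largest differences between groups, PSMB3 was the highest of the beta ring, and PSMB9 and PSMB5 represent the induced and the constitutive catalytic subunits. No stretch holds an exon of a coding gene: they were shortened where another transcript begins before the start used here, and that of PSMB5 lies between this start and an exon farther upstream of another PSMB5 transcript. Capitals mark 3 motifs where they occur on either strand: TGACNNNGC, the core of the antioxidant response element that NFE2L1 binds, CCAAT, the box bound by NF-Y, and CCGGAAG, the core bound by ETS factors.
PSMD9, chr12:121888540-121888731, plus strand: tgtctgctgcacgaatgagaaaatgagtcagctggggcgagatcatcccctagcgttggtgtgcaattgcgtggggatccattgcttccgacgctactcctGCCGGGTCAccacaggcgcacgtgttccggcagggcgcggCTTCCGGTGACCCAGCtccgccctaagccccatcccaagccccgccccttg
PSME1, chr14:24135944-24136162, plus strand: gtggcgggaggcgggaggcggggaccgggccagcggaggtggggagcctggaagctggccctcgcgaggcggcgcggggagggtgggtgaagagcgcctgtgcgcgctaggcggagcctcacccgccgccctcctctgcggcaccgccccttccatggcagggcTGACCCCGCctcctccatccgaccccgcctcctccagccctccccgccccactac
PSMB3, chr17:38752491-38752740, plus strand: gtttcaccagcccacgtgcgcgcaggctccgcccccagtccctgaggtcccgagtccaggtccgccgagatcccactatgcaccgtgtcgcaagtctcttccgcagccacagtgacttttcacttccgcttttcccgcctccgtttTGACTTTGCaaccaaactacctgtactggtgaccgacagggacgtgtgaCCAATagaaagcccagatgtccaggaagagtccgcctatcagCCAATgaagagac
PSMB9, chr6:32853942-32854147, plus strand: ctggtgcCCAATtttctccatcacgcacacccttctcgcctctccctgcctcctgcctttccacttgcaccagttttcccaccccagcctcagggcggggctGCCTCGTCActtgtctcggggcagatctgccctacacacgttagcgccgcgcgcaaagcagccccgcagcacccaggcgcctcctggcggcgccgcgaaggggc
PSMB4, chr1:151399323-151399559, plus strand: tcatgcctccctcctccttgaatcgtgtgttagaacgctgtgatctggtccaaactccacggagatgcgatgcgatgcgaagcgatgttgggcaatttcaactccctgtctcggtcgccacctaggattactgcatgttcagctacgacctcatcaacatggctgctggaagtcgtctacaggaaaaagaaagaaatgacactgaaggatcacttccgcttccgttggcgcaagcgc
PSMB5, chr14:23034901-23035111, minus strand: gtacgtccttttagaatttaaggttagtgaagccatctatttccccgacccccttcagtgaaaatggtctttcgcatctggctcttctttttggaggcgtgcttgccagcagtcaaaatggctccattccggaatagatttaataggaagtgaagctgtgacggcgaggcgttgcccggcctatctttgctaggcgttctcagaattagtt

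The proteasome promoters ranked high among coding promoters in every library. Their median percentile was 76.2 and 71.6 in the naïve pair, 68.5 and 74.0 in the R1 pair and 71.5 and 75.7 in the R2 pair, while the medians of the other coding promoters lay between 48.5 and 51.7. Averaged over each pair, the median was 73.9 ± 3.31 (SD, n = 2) for naïve cells, 71.3 ± 3.82 for R1 cells and 73.6 ± 2.90 for R2 cells, so the groups differed by less than the spread between libraries of a group. Of the 45 genes, the naïve pair had a peak at 43 and 41, the R1 pair at 45 and 44 and the R2 pair at 40 and 40. All 6 libraries had a peak at 38 of the 45 (84.4%), against 54.7% of all coding promoters. Ribosomal protein promoters, also taken by symbol, gave 59 of 86 (68.6%), with median percentiles between 57.1 and 62.4. The symbol pattern for this set also admits paralogs whose symbols end in L or in Y with a digit, which were not set apart. Of the 86, 3 had no peak in any library.

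**Figure D1:**
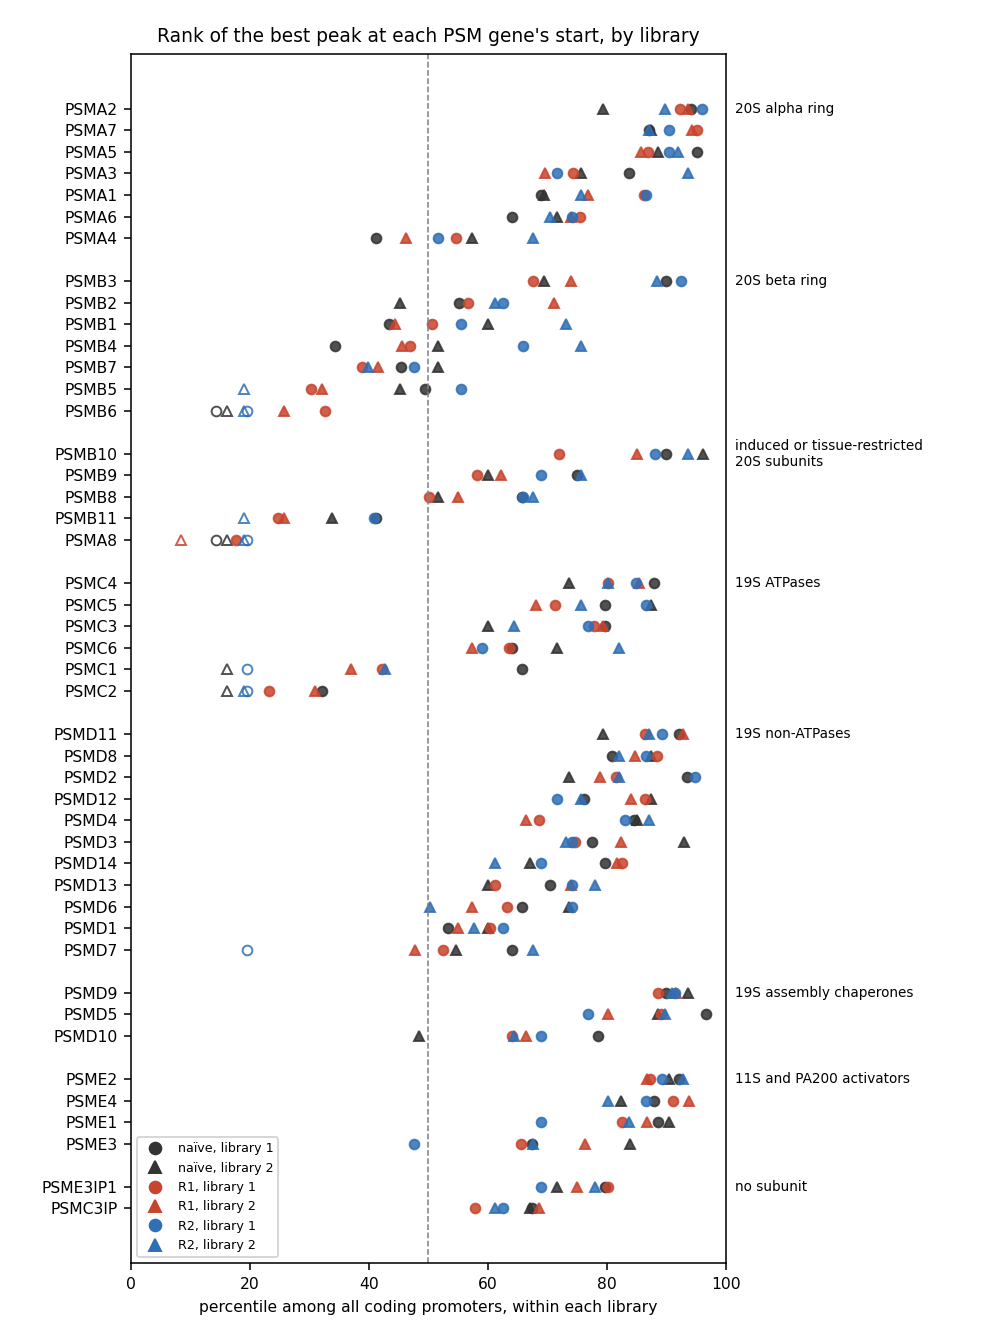
Percentile rank of the best promoter peak of each of the 45 genes (x axis, 0 to 100, among all coding promoters of the same library) for the 6 libraries, grouped by role and ordered by mean. Filled symbols are libraries with a peak and open symbols libraries without one, and the dashed line is 50. Most alpha ring, cap, chaperone and activator genes lie right of the line, and most beta ring genes lie near or left of it.

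The 20S core was uneven. The 7 alpha ring genes had a median over genes of 78.1, with means from 53.1 for PSMA4 to 90.9 for PSMA2. The 7 beta ring genes had a median of 53.3, from 21.2 for PSMB6 to 80.3 for PSMB3. Within libraries the alpha median exceeded the beta median by 38.3 and 24.0 points for the naïve pair, by 39.3 and 32.4 for the R1 pair and by 31.2 and 26.0 for the R2 pair. The direction was thus the same in all 6 libraries, which share the genes and are no independent test of it, and 6 of the 7 alpha genes but 1 of the 7 beta genes lay above 50 in every library.

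PSMA2, an alpha subunit on chromosome 7, stood at 94.2 and 79.4 in the naïve pair, 92.2 and 93.7 in the R1 pair and 96.1 and 89.7 in the R2 pair. PSMA4 was the only alpha gene near the middle, at 41.2 and 57.3 in the naïve pair, 54.7 and 46.2 in the R1 pair and 51.7 and 67.6 in the R2 pair. For both genes the groups overlapped. Of the beta genes, PSMB3 was at 90.004 and 69.5 in the naïve pair, 67.6 and 74.0 in the R1 pair and 92.5 and 88.5 in the R2 pair. Its R1 libraries lay below both R2 libraries, and its naïve libraries spread across both. PSMB2 was at 55.2 and 45.2 in the naïve pair, 56.6 and 71.1 in the R1 pair and 62.5 and 61.1 in the R2 pair, so all resistant libraries lay above both naïve ones.

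The constitutive catalytic subunits had the lowest mean ranks of the constitutive core genes. PSMB5 carries the chymotrypsin-like site that bortezomib blocks, and its percentiles were 49.5 and 45.2 in the naïve pair, 30.3 and 32.2 in the R1 pair, 55.4 in the first R2 library and no peak in the second. These PSMB5 ranks came from summits at different sites. The summit lay at -346 bp from the start in the first naïve library and at -311 bp in the first R2 library, where the peak did not cover the start. It lay at 108 bp in the second naïve library and at -5 and 42 bp in the R1 pair. PSMB6, the caspase-like subunit, had no peak in either naïve or either R2 library and lay at 32.5 and 25.8 in R1. PSMB7, the trypsin-like subunit, was at 45.5 and 51.6 in the naïve pair, 38.8 and 41.5 in the R1 pair and 47.6 and 39.9 in the R2 pair. No library had PSMB6 above 32.5 or PSMB7 above 51.6. Both R1 libraries ranked PSMB7 below both naïve ones, a difference of -8.43 points on the mean (SE 5.06, adjusted p = 0.314 by limma's moderated test with Benjamini-Hochberg adjustment). Coding promoters within 5 Mb of PSMB7 had a median difference of -6.88.

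Interferon induces PSMB9, PSMB10 and PSMB8, which take the places of PSMB6, PSMB7 and PSMB5 in the immunoproteasome. PSMB9 was at 74.9 and 60.0 in the naïve pair, 58.2 and 62.2 in the R1 pair and 68.9 and 75.7 in the R2 pair. PSMB10 was at 90.004 and 96.2 in the naïve pair, 72.0 and 85.0 in the R1 pair and 88.0 and 93.7 in the R2 pair. PSMB8 was at 65.7 and 51.6 in the naïve pair, 50.2 and 55.1 in the R1 pair and 65.9 and 67.6 in the R2 pair. Each induced gene ranked above its constitutive counterpart in 6 of 6 libraries, by 25.7 to 60.7 points for PSMB9 over PSMB6, by 33.2 to 53.8 for PSMB10 over PSMB7, and by 6.41 to 48.7 for PSMB8 over PSMB5, with absent peaks at the shared lowest rank.

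This order depended on where the peaks lay for 2 of the 3 pairs. The best peak of PSMB10 had its summit 1026 to 1115 bp downstream of the canonical start in all 6 libraries, within 8 to 60 bp of the start of another PSMB10 transcript. The best peak of PSMB8 had its summit at -673 to -641 bp from the start, within 9 to 41 bp of the start of another PSMB8 transcript. When a peak had to cover the canonical start itself, PSMB9 still had the higher fold enrichment in 6 libraries, but PSMB10 exceeded PSMB7 in 2 libraries and lay below it in 4. PSMB8 and PSMB5 were then split at 2 and 2, and neither had such a peak in the R2 libraries. In R1, where PSMB10 and PSMB8 were higher by this count, the covering peaks were wide ones with the same distant summits. PSMB9 shares its best peak with TAP1, the peptide transporter gene that runs the other way from a start 488 bp upstream, and both starts were covered in all 6 libraries.

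The other 2 genes of the induced or tissue-restricted class lay low. PSMB11, the thymus-specific beta subunit, was at 41.2 and 33.7 in the naïve pair, 24.7 and 25.8 in the R1 pair, 40.8 in the first R2 library and no peak in the second. PSMA8, an alpha subunit of the testis, had a peak in 1 library only, the first of R1, at percentile 17.7. The means of PSMB11 (30.9) and PSMA8 (15.8) bracket those of 2 constitutive genes, PSMC2 (23.4) and PSMB6 (21.2).

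The 19S cap held both high and low ranks. The 6 ATPase genes had a median of 69.6 over genes. PSMC4 was the highest, at 87.9 and 73.6 in the naïve pair, 80.2 and 85.4 in the R1 pair and 84.9 and 80.2 in the R2 pair, with overlapping groups. PSMC2 was the lowest, at 32.1 in the first naïve library, 23.2 and 30.9 in R1, and with no peak in the second naïve or either R2 library. PSMC1 was at 65.7 in the first naïve library, 42.2 and 36.9 in the R1 pair and 42.7 in the second R2 library, with no peak in the second naïve or the first R2 library.

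The 11 non-ATPase genes, which form the base and lid and hold ubiquitin receptors and the deubiquitinase, had a median of 79.1, and 10 of them lay above 50 in every library. PSMD11, a lid subunit, led at 92.2 and 79.4 in the naïve pair, 86.4 and 92.8 in the R1 pair and 89.3 and 87.1 in the R2 pair. PSMD14, the deubiquitinase that strips ubiquitin from substrates, was at 79.7 and 67.1 in the naïve pair, 82.5 and 81.7 in the R1 pair and 68.9 and 61.1 in the R2 pair. Its R1 libraries were above all 4 others. PSMD7, the lid partner of PSMD14, was lowest at 64.1 and 54.6 in the naïve pair, 52.4 and 47.8 in the R1 pair, no peak in the first R2 library and 67.6 in the second.

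Chaperones of 19S assembly and activators included several of the highest ranks. PSMD9, a chaperone of the ATPase ring, was at 90.004 and 93.6 in the naïve pair, 88.6 and 91.6 in the R1 pair and 91.5 and 90.9 in the R2 pair, a mean of 91.0 ± 1.69 over 6 libraries. PSMD10, the chaperone also known as gankyrin, was lower and spread more, at 78.6 and 48.5 in the naïve pair, 64.0 and 66.5 in the R1 pair and 68.9 and 64.5 in the R2 pair. PSME1 and PSME2 encode the interferon-induced 11S ring. PSME2 was at 92.2 and 90.5 in the naïve pair, 87.2 and 86.7 in the R1 pair and 89.3 and 92.9 in the R2 pair, so both R1 libraries lay below the other 4, and R1 minus naïve was -4.42 points (SE 2.79, limma's adjusted p = 0.339). The median of coding promoters within 5 Mb of PSME2, taken as for PSMB7, differed by -10.7. The nuclear 11S gene PSME3 was the lowest of the 4 activators, at 67.4 and 83.8 in the naïve pair, 65.5 and 76.3 in the R1 pair and 47.6 and 67.6 in the R2 pair. Of the 2 genes that are no subunit, PSMC3IP had a mean of 64.1 ± 4.24 and PSME3IP1 of 75.6 ± 4.60 over 6 libraries.

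In 7 of the 45 genes at least 1 library had no peak, and these gaps were read against depth. Scaled from the 59 and 30 tags in the R1 libraries, PSMB6 would have 17.0 and 12.6 tags in the first naïve library, where peaks were called from 9 tags, and 10.0 and 7.46 in the second, where they were called from 7. For the R2 pair, with 6 tags as the lowest called, it would have 4.69 to 6.68. By this scaling, which assumes equal enrichment in all libraries, the missing PSMB6 peaks of R2 lie on both sides of the lowest called and those of the naïve libraries above it. PSMC1 gave 11.4 to 14.1 scaled tags in the second naïve library and 7.197 to 8.89 in the first R2 library, both without a peak. PSMD7 gave 10.0 to 11.8 in the first R2 library without one. In the second R2 library the scaled tags of PSMB5 were 6.11 to 6.45, just above the lowest called, and those of PSMB11 were 4.75 to 4.96, below it. Those of PSMC2 lay below the lowest called in the first R2 library (4.18 to 5.79). They lay on both sides of it in the second R2 library (4.41 to 6.12) and in the second naïve library (6.63 to 9.198). PSMA8 gave 3.00 to 8.07 in the naïve and R2 libraries, below the lowest called in each, but 19.2 in the second R1 library, where peaks were called from 14 and it had none.

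**Figure D2:**
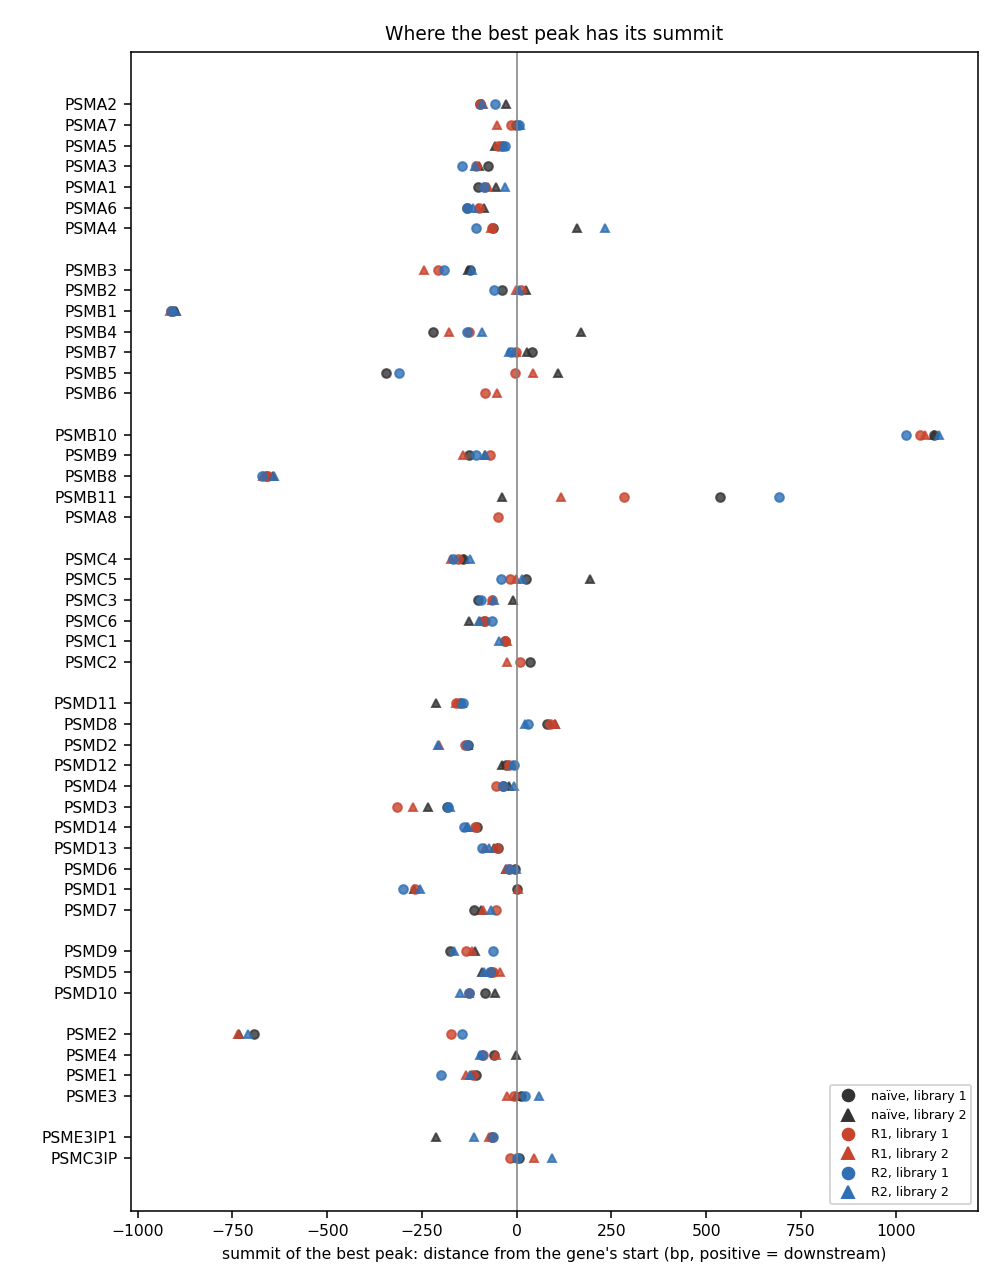
Distance of the summit of each gene's best peak from the gene's start (x axis, bp, positive values downstream) in the libraries with a peak, in the order of the plot of ranks. Most summits lie just upstream of the start, with PSMB1, PSMB8, PSMB10 and PSME2 set apart at over 500 bp in most libraries and PSMB11 scattered.

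The best peaks sat close to the starts for most genes. Their median summit lay at -92 to -57 bp from the start, 33 to 38 of the 45 genes had the summit within 200 bp, and the peak covered the start in 34 to 44 genes. Median widths followed depth, from 459.5 bp in the first R2 library to 1047 bp in the first R1 library. PSMB1 was an exception: its best peak had its summit at -916 to -898 bp in all 6 libraries, 79 to 97 bp from an annotated start of TBP, the TATA-binding protein gene that runs the other way. A peak covered the start of PSMB1 in 1 library of R1, with fold 6.82, and in 1 of R2, with fold 6.49, and in no other, so the ranks of PSMB1 describe a peak nearer to TBP. For PSME2 the summit lay at -735 to -693 bp in 4 libraries and at -173 and -145 bp in the other 2, in both cases inside a single peak that also covered the start.

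Several promoters were shared with a neighbour. Besides PSMB9, the best peak covered both starts in all 6 libraries for PSME2 with RNF31, PSME3IP1 with RSPRY1, PSME4 with ACYP2, PSMA7 with SS18L1 and PSMA2 with MRPL32, which run in opposite directions from starts 120 to 888 bp apart. PSMD10 and ATG4A shared theirs in 5 libraries and PSMD13 and SIRT3 in 2, and PSMC5 and FTSJ3, which run toward each other from starts 232 bp apart, in all 6. The rank of such a promoter belongs to both genes and cannot be divided between them.

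Accessibility in R1 was compared with that in naïve cells by limma's moderated test, with p-values adjusted over the 10950 coding promoters that had a peak in all 6 libraries. Of the 38 proteasome promoters tested, 0 passed an adjusted p of 0.05, whereas 7.71% of all promoters tested did. At an unadjusted p under 0.05 stood 3 of the 38, against 26.8% of all. The smallest adjusted p among the 38 was 0.0875. Both R1 libraries lay above both naïve ones in 6 genes (28.6% of all promoters) and below them in 10 (32.5% of all promoters). The median difference was -2.53 points over the 38 and -0.459 over all, and 33 of the 38 but 63.2% of all promoters lay within 10 points of 0. The median half-width of the 95% interval was 14.8 points, and it varied between genes. The SE was 2.57 points for PSMD9, at a mean percentile of 91.0, and 9.19 for PSMD10, at 65.1. The shares within 10 points, here and in the other comparisons, were not matched for rank.

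PSMD4, a ubiquitin receptor of the cap (chromosome 1, start 151254734), had the largest difference. It was at 84.6 and 85.2 in the naïve pair, 68.5 and 66.5 in the R1 pair and 83.1 and 87.1 in the R2 pair. Both R1 libraries were below all 4 others, and R1 minus naïve was -17.4 points (SE 5.66, 95% interval -30.0 to -4.76, limma's adjusted p = 0.0875). The median of coding promoters within 5 Mb of PSMD4, taken as for PSMB7, differed by -4.54.

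PSMB10 differed by -14.6 points (SE 4.77, interval -25.2 to -3.96, limma's adjusted p = 0.0881), with both R1 libraries below both naïve ones. This is the peak over the internal start, and the median of its neighbours within 5 Mb differed by -7.54. With that median taken off in each library the PSMB10 difference was -7.06 (limma's adjusted p = 0.530), and without the first R1 library it was -8.05 (limma's adjusted p = 0.457). PSMC5, an ATPase, was at 79.7 and 87.5 in the naïve pair, 71.3 and 68.0 in the R1 pair and 86.6 and 75.7 in the R2 pair, a difference of -13.9 (SE 6.56, limma's adjusted p = 0.207). PSMB2 lay the other way, at 13.6 points (SE 6.86, limma's adjusted p = 0.235), while the median of its neighbours differed by -5.94. Without the first R1 library the PSMB2 difference was 20.8, without the second 6.42, and without the second naïve library 8.64. The third gene with an unadjusted p under 0.05 was PSMA7, an alpha subunit named here after its values were seen. It was at 87.2 and 87.5 in naïve cells and 95.1 and 94.3 in R1. PSMA7 was thus 7.37 points higher in R1 (SE 2.64, limma's adjusted p = 0.112), and the median of its neighbours on chromosome 20 was higher by 15.4. Its peak in the first R1 library was 24131 bp wide, the widest of the 45.

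**Figure D3:**
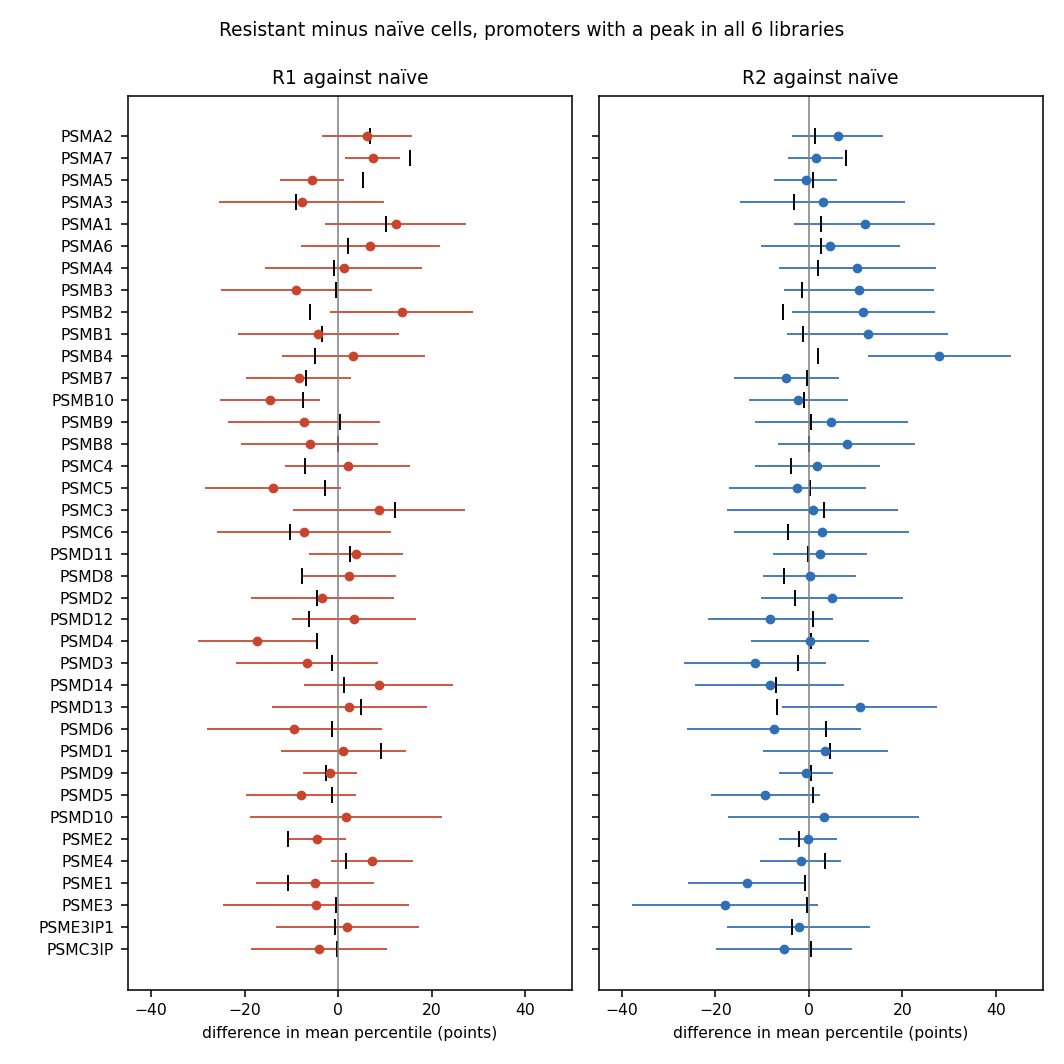
Difference in mean percentile (x axis, points) of R1 and of R2 from naïve cells for the 38 promoters with a peak in all 6 libraries. Points with bars are limma's estimates with their 95% intervals, unadjusted. Black ticks are the difference in the median percentile of other coding promoters within 5 Mb that had a peak in all 6 libraries. Most intervals cross 0. Of those that do not, the intervals of PSMD4 and PSMB10 in R1 and PSMB4 in R2 have the nearer end farthest from 0. Both panels use the same naïve libraries.

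The comparison of R2 with naïve cells used the same naïve libraries, so the 2 comparisons are not independent. Again 0 of the 38 were called, with 0.795% of all promoters called, and 2 of the 38 had an unadjusted p under 0.05, against 17.9% of all. Both R2 libraries lay above both naïve ones in 5 genes (22.6% of all promoters) and below them in 4 (19.9% of all promoters). The median difference was 1.10 points over the 38 and 0.265 over all, and 28 of the 38 lay within 10 points of 0, against 71.7% of all.

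PSMB4, a non-catalytic beta subunit on chromosome 1 whose promoter is shown above without any of the 3 motifs, had the largest difference of any comparison. It was at 34.3 and 51.6 in the naïve pair, 46.9 and 45.6 in the R1 pair and 65.9 and 75.7 in the R2 pair. The R2 libraries were above all 4 others, R1 lay between the naïve libraries, and R2 minus naïve was 27.8 points (SE 6.86, 95% interval 12.5 to 43.1, limma's adjusted p = 0.0881). Without the first naïve library it was 19.1 and without the second 36.5. The median of its neighbours within 5 Mb, PSMD4 among the genes there, differed by 1.96. The best peak behind these ranks had 14 and 15 tags at its summit for the naïve pair, 95 and 60 for the R1 pair and 15 and 19 for the R2 pair, so at the lower depth of R2 the summit held as many tags as in naïve cells. PSMD4, with which PSMB4 shares this part of chromosome 1, differed by 0.196 points in R2 (95% interval -12.4 to 12.8).

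The next largest differences were in the 11S activators. PSME3 differed by -18.0 points (SE 8.92, interval -37.9 to 1.89, limma's adjusted p = 0.327), with overlapping groups, and by 1.89 points when the start of its gene record was used instead. Single libraries moved it, to -8.00 without the first R2 library, -28.0 without the second and -9.77 without the second naïve one. PSME1 was at 88.7 and 90.5 in the naïve pair, 82.5 and 86.7 in the R1 pair and 68.9 and 83.8 in the R2 pair, so that both R2 libraries lay below both naïve ones (R2 minus naïve -13.2, SE 5.63, limma's adjusted p = 0.251). It was -5.79 without the first R2 library and -20.7 without the second. PSMB1, whose peak lies nearer to TBP, differed by 12.6 points (SE 7.71, limma's adjusted p = 0.435) with overlapping groups, from 43.4 and 60.0 in naïve cells and 50.6 and 44.4 in R1 to 55.4 and 73.2 in R2. Without the first R2 library it was 21.4 and without the second 3.72, and without the first naïve library it was 4.31 and without the second 20.9.

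Between the resistant lines, R1 and R2, 0 of the 38 were called and 1.32% of all promoters were. An unadjusted p under 0.05 was found in 7 of the 38 and in 19.6% of all. Both R1 libraries lay above both R2 ones in 6 genes (24.7% of all promoters) and below them in 12 (30.7% of all promoters), and 25 of the 38 were within 10 points of 0, against 69.4% of all. PSMB4 was lower in R1 (R1 minus R2 -24.5 points, SE 6.86, limma's adjusted p = 0.103). PSMB3 followed at -19.7 (SE 7.23, limma's adjusted p = 0.181) and PSMD4 at -17.6 (SE 5.66, limma's adjusted p = 0.141). The medians of their neighbours within 5 Mb differed by -6.83 for PSMB4, 1.05 for PSMB3 and -4.93 for PSMD4. PSMD14 was higher in R1 by 17.1 points (SE 7.15, limma's adjusted p = 0.225), and the median of its 16 neighbours within 5 Mb by 8.27.

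The proteasome promoters were then searched for 7 short motifs on both strands, in the 300 bp from 250 bp before to 50 bp after the RefSeq start. Of the 45 genes 40 had a RefSeq promoter within 100 bp of the start used here, and the comparison set was the 14704 coding promoters matched in the same way. No motif's letters contain those of another. TGACNNNGC occurred in 11 of the 40 (27.5%) and in 14.4% of all matched promoters, and CCGGAAG in 15 (37.5%) and in 15.04%. CCAAT occurred in 19 (47.5%, 37.1% of all), the GC box GGGCGG in 27 (67.5%, 62.6%) and TATAAA in 5 (12.5%, 9.45%). AAGATGGC, a YY1 type, was found in 4 (10.0%, 4.27%) and GCATGCGC, a nuclear respiratory factor 1 type, in 2 (5.00%, 4.48%). These are matches of letters and not binding sites.

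**Figure D4:**
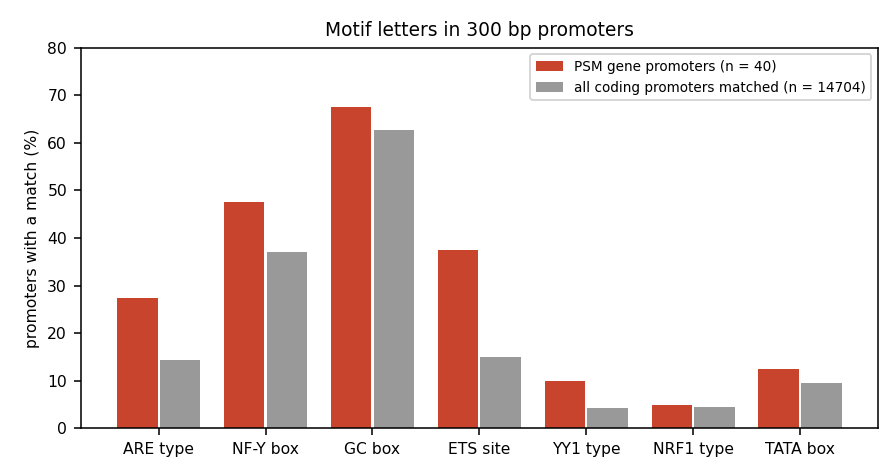
Share of promoters (y axis, %) with at least 1 match of each of 7 motifs in the 300 bp promoter, for 40 proteasome promoters (red) and 14704 coding promoters (grey). The ETS and antioxidant response element (ARE) types show the widest gaps, 37.5% against 15.04% and 27.5% against 14.4%.

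The 11 genes with TGACNNNGC spread over the core, the cap and the activators: PSMB3 and PSMB9, PSMC4, PSMD1, PSMD3, PSMD12, the chaperones PSMD5 and PSMD9, and PSME1, PSME2 and PSME4. In the stretches shown, PSMD9 has it at -149 to -141 on the minus strand and at -102 to -94 on the plus strand, the latter right after a CCGGAAG match on the minus strand. PSME1 has it at -86 to -78, PSMB3 at -104 to -96 ahead of CCAAT at -55 and -13, and PSMB9 at -148 to -140 on the minus strand. In PSMD9 the summits of the 6 libraries lay between -176 and -62 bp, a stretch that holds both of these matches. PSMB4 and PSMB5 have none of the 3 motifs in the stretch shown. The GC content of the proteasome promoters had a median of 61.2%, against 64.0% for all matched promoters, and their CpG counts a median of 22 against 24. The lowest-ranked with a RefSeq entry included PSMC2 with 7 CpG and 44.7% GC, PSMB11 with 4 and 56.7%, and PSMC1 with 15 and 48.3%, but PSMA8 had 25 and 61.0%, and PSMB10 ranked high with 7 and 54.0%.

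The other genes of the pathway, outside the symbol rule, gave no call either. Of 16 proteasome factors, 12 were tested and 0 were called in any of the 3 comparisons. Of all promoters tested, 7.71% were called for R1 against naïve, 0.795% for R2 against naïve and 1.32% for R1 against R2. The smallest adjusted p-values of limma's test in these comparisons were 0.0670 for ADRM1 (4.24 points), 0.0610 for AKIRIN2 (26.7 points) and 0.0678 for UCHL5 (-7.71 points). AKIRIN2 was also 16.6 points higher in R1 than in naïve cells (limma's adjusted p = 0.0978). NFE2L1, the transcription factor that raises proteasome genes when the protease is inhibited, had a mean percentile of 98.0, from 96.1 to 99.5. ADRM1, a ubiquitin receptor of the cap, had 97.1, the cap's deubiquitinase UCHL5 94.2, and the assembly chaperone PSMG3 92.0. The 20S maturation factor POMP (35.9) and the small cap subunit SEM1 (27.1) were low, and each lacked a peak in 2 libraries. PSMG2 (43.5) had no peak in either R2 library, and PAAF1 (45.5) had none in the first R2 library.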

How the data were processed

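ATAC-seq libraries of naïve, R1 and R2 SK-N-AS cells were grouped by their labels. According to the methods and the submitters' processing notes, the authors aligned reads with BWA 0.7.12-r1039, marked duplicates with Picard 1.65, removed mitochondrial reads, offset read ends and called peaks per library with MACS2 2.2.7.1. Reads were extended and shifted by fixed lengths, so summits are positions of extended reads rather than of single cuts. For a peak, the deposited columns hold its fold ratio over background, its −log10 p-value and its −log10 q-value. The methods name hg19 and the notes hg19 and hg38. The last peaks of all 24 chromosomes lie within hg38, which was used with GENCODE release 44.

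Each list has a single background rate, recovered from the step of its folds, with which 100% of summit values below 300 tags lie within 0.05 of a whole tag. Rank by fold equals rank by p. limma 3.58.1 (R 4.3.3) was fitted to percentiles of the 3 groups together, with a trend, two-sided, on 10950 promoters with a peak in all 6 libraries. An exact test of 2 against 2 libraries cannot go below p = 0.333. Scripts used Python 3.11.15, pandas 2.3.3 and NumPy 2.4.6, and the peak search and the fit were tested on simulated data. The genes, lists, motifs and tests were chosen with earlier results of these data known. Genes named singly are, by rule, the 4 largest differences of each comparison, those lacking a peak in a library, the highest and lowest of each class, the catalytic subunits and the 2 that encode no subunit. Genes named in the motif and neighbour counts were chosen after their values were seen. Alternatives were other windows, starts, peak cutoffs, measures, filters, a local correction, a replicate block and leaving out each library.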

Additional observations from a re-analysis of the deposited data

How the results depend on the processing

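Each comparison was repeated under 20 alternatives. Of the 60 results, 57 again had 0 of the proteasome promoters called and 3 had 1. For R1 against naïve it was 1 (PSMD4, adjusted p = 0.0481) when promoters with a peak in at least 1 library were tested, and 1 (PSMB10, adjusted p = 0.0462) with the replicate block. For R2 against naïve it was 1 (PSMB4, adjusted p = 0.0437) on normal scores of the ranks. Over all alternatives the adjusted p ran from 0.0481 to 0.390 for PSMD4, from 0.0462 to 0.530 for PSMB10 and from 0.0437 to 0.255 for PSMB4, whose difference ran from 19.1 to 36.5 points as a percentile of all coding promoters and was 38.0 as one of the tested promoters alone. The replicate numbers did not pair the libraries (correlations 0.0522, -0.0204 and 0.00308). Beyond PSMB10 the block changed no call among the proteasome promoters. Of 235 repeats of the 12 differences named, 231 kept direction and side of the threshold. PSME3 in R2 changed sign, from -18.0 to 1.89, with the start of the gene record, and the cause was not tested. Calls over all promoters depended on the setting. R1 against naïve had 844 and ran from 31 (the first R1 library left out) to 1325 (the second R2 library left out), R2 against naïve had 87 and ran from 0 to 232, and R1 against R2 had 145 and ran from 0 to 423. With the median of neighbours within 5 Mb taken off they were 45, 0 and 0. Without a trend, an alternative added after seeing the data, they were 401, 0 and 0. Median percentiles moved by less than 1 SD throughout. The 6 to 9 tags needed for a call in the naïve and R2 libraries limit what was detectable there.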
